A study of Mus musculus with 8 samples.

Results

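Regions of RNA that were called as m6A peaks in both denervated gastrocnemius libraries and in neither innervated library, in genes without a region called in all 4 libraries, are described here. They were chosen by their presence and absence in the 4 peak lists, so their number and their absence from innervated muscle are a description and not a result. The rule found 377 regions in 259 gene names, of 13116 regions in 5987 gene names in the whole series. A region joins the peaks of any list whose blocks overlap by 1 base or more on the same strand.

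The muscles came from 10-week-old male C57BL/6 mice. Denervated gastrocnemius, a calf muscle, was taken 14 days after denervation, and the innervated control was the gastrocnemius of the opposite leg of a denervated animal, labelled untreated. Each group had 2 immunoprecipitated libraries, made with an m6A antibody, and 2 input libraries. Which animals gave which replicates is not stated, so spreads between lists may be technical.

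N6-methyladenosine (m6A) is laid on nascent RNA by a methyltransferase complex, removed by demethylases and bound by reader proteins that bear on the stability, splicing and translation of the transcript. It is best known from long internal exons, the surroundings of stop codons and 3′ untranslated regions. In MeRIP-seq, fragments bearing the mark are captured and peaks are called where captured RNA stands above input. A muscle that loses its nerve wastes, spreads acetylcholine receptors beyond the junction and brings back ion channels of the immature fibre. A peak call needs enough RNA as well as enough methylation. Input levels were not analysed here, so a transcript that was more abundant after denervation cannot be told apart from one that was more methylated. In whole muscle, more cells of a type and more RNA per cell cannot be told apart either.

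Of all 13116 regions, 481 (3.67%) were in both denervated lists and neither innervated list. Among the 5817 regions of genes without a region in all 4 lists, the 377 members were 6.48%. Of the 5987 gene names with a peak, 259 (4.33%) held a member. The opposite class, in both innervated lists and neither denervated list, in genes without a region in all 4 lists, numbered 394 regions in 277 genes. The innervated lists held 9327 and 10300 peaks and the denervated lists 9804 and 9496. Of 10 muscle fibre markers, among them Acta1, Ckm and Ttn, 0 had a peak in any list, so the labelled tissue could not be checked by them.

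At 3 genes the denervated peaks of both lists covered the annotated start of a RefSeq transcript (GRCm38.p6, the assembly of mm10) and its first 50 transcribed bases whole, and the sequence around that start is shown for each. The first 30 transcribed bases are in capitals and the 70 bases before the start in lower case, 5′ to 3′ on the minus strand. They lie at chr19:36119815-36119914 for Ankrd1, chr2:125506409-125506508 for Fbn1 and chr16:92697300-92697399 for Runx1.
Ankrd1: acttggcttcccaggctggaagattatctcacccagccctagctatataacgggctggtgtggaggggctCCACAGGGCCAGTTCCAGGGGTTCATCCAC
Fbn1: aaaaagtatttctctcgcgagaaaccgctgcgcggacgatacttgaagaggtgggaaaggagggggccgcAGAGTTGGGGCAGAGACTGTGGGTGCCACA
Runx1: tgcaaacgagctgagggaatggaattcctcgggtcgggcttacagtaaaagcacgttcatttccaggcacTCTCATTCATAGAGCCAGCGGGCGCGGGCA
Ankrd1 encodes an ankyrin-repeat protein of stressed muscle, Fbn1 the microfibril protein fibrillin, and Runx1 a Runt-domain transcription factor known to be switched on in muscle after loss of the nerve. In Ankrd1 and Fbn1 the member ended exactly at the annotated start, with 0 bases before it. In Runx1 the peaks of both lists also held an upstream block of 8 bases, at chr16:92825589-92825596. This region lay at 57.4% of the gene span, so the start it covers is internal to the gene. Peaks joined to an upstream block need not come from a transcript that begins at that start, which was not tested. GGAC, the core of the usual m6A motif, was searched on the transcribed strand of the first 50 bases. It began at base 31 in Runx1 and base 45 in Fbn1, counted from 1 at the start, and was not found in that window of Ankrd1. It was in 51 of 244 such windows of member genes (20.9%) and in 6194 of 32851 windows of the whole table (18.9%). In all, 8 members reached into the first 50 bases of an annotated start, and 192 member genes had a start in the table. Over a RefSeq miRNA hairpin lay 0 members.

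Genes of the neuromuscular junction and the response to denervation were a small and well-known group among the members. Of 27 such genes, 15 had a peak in any list and 6 held a member, 12 regions in all. Those 6 were 40% of the 15, beside 4.33% of all genes with a peak, but the gene lists used here were drawn up with results of these data known, so the difference is no support. Their regions had a median mean score percentile of 50.3, beside 45.8 over all members. The score is the authors' value for a peak, read here as stronger when smaller, and a percentile of 100 is the smallest score of a list. Each of the 6 genes had 0 peaks in both innervated lists. Of the other genes of the list, 4 had a region in all 4 lists. Gadd45a, a stress-response gene, went the other way, with 1 peak in each innervated list, 0 in each denervated list and an innervated-only region.

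Chrnd encodes the delta chain of the acetylcholine receptor and had 1 peak in each denervated list. They were 297 and 347 bases long, merged into chr1:87198835-87199181, 889 bases from the 3′ end of the gene span. Their score percentiles of 34.7 and 33 were close together and in the larger-score part of both lists. The receptor subunit genes Chrna1, Chrnb1, Chrne and Chrng had 0 peaks in any list, and Musk and Lrp4, the receptor pair that organises the junction, had 1 peak in each of the 4 lists.

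Runx1 had 3 peaks in each denervated list, each matched by a peak of the other list. The longest region, at chr16:92695792-92696838, spanned 948 bases in denervated 1 and 1047 in denervated 2. It lay downstream of the start-covering region shown above, which held 250 and 151 bases. A further region of 349 and 300 bases lay near the 3′ end of the gene. Their score percentiles were 20.1 to 56.9, in the middle of the lists.

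Ankrd1 held peaks at both ends of the gene. The start-covering region was 197 bases long in denervated 1 and 99 in denervated 2, in 2 blocks each. The other region, 147 bases from the 3′ end, held 590 and 589 bases. Both were among the larger scores of their lists, with percentiles of 13.7 and 3.51 at the start and 15.1 and 7.37 at the end. Nrcam, a neural adhesion molecule, had a peak of 450 bases in denervated 1 and of 500 bases in denervated 2, at percentiles of 67.7 and 62.

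Kcnn3, a small-conductance calcium-activated potassium channel, held 3 members, and its first was the longest of all 377 with 1245 block bases. Its peaks held 898 bases in denervated 1 and 1195 in denervated 2. In the peak of more than 1 block, the block that ended at base 89521404 of chromosome 3 held 445 of these in denervated 1 and 1141 in denervated 2. Denervated 1 had 2 peaks in this region, and the bases of its other peak are not in the 445. Its 3′ region held 599 and 648 bases at percentiles of 89.1 and 68.1, while the region before it, of 250 and 200 bases, stood at 14.4 and 3.06. The ranks of regions of 1 gene could thus be far apart in both lists.

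The brain-type voltage-gated sodium channels Scn2a1 and Scn3a, of which Scn3a was chosen after its values were seen, had 0 peaks in both innervated lists. Scn2a1 had 3 and 4 denervated peaks in 3 members, and Scn3a had 2 and 3 in 2 members. Their 3′ regions held 500 and 600 bases in Scn2a1 and 549 and 450 bases in Scn3a. Scn4a, the main channel of adult muscle, had 3 and 4 innervated and 3 and 1 denervated peaks, and a region in all 4 lists. Of the 12 ion channel and excitability genes with a peak, 3 held members (25%, beside 4.33% of all genes with a peak), Kcnn3 and Hrc among them. A region in all 4 lists was held by 6.

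Of 13 myogenic regulator and fusion genes with a peak, Myod1, Mymx and Peg3 held members (23.1%, beside 4.33% of all genes with a peak) and 4 had a region in all 4 lists. Mymx, which encodes the fusion micropeptide myomixer and is listed in the files under its older name Gm7325, had 2 peaks in each denervated list and 0 in the innervated lists. Its regions held 99 and 148 bases at chr17:45601064-45601211 and 195 and 245 bases at chr17:45601260-45601552, both at percentiles of 89.1 and 78.8. The peak of Myod1, the myogenic determination factor, had the same 196 bases in both denervated lists, at percentiles of 26.7 and 40.5. Peg3, an imprinted zinc finger gene of satellite cells, held a pair of regions of 747 and 948 bases, both wider in denervated 2. The antisense gene Peg3os covers the first of these. Of 8 sarcomere and cytoskeleton genes with a peak, Myom1, Mylk4 and Xirp2 held members (37.5%). Myom1, an M-band protein, had peaks of 250 and 299 bases at percentiles of 87.2 and 74.6, 298 bases from the 3′ end of its span. Mylk4, a myosin light chain kinase, had percentiles of 36.2 and 8.29. Hrc, a histidine-rich calcium-binding protein of the sarcoplasmic reticulum, held regions of 844 and 546 block bases at percentiles of 61.3 and 62.8.

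Xirp2, an actin-binding xin-repeat protein, had 12 peaks in innervated 1, 0 in innervated 2, 11 in denervated 1 and 16 in denervated 2. Its members lay 348 and 149 bases from a peak of innervated 1. The gene passed the rule because innervated 2 held no peak of it.

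Of 17 ubiquitin ligase and autophagy genes with a peak, Fbxo31, Klhl41 and Trim44 held members (17.6%, beside 4.33% of all genes with a peak). Of the 17, 7 had a region in all 4 lists, among them Fbxo32, the atrophy ligase atrogin. Klhl41, a kelch protein of the sarcomere that acts with a ubiquitin ligase, had 350 bases in denervated 1 and 647 in denervated 2, at percentiles of 76.9 and 78.3. Fbxo31, an F-box protein, stood at the other end, at percentiles of 1.79 and 4.07. Trim44, of the tripartite motif family, held a region near each end of its span, both at 97.6 and 96.

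Of 20 growth factor genes with a peak, Gdf5, Gdf15 and Bmpr2 held members (15%, beside 4.33% of all genes with a peak). Of the 20, 15 had a region in all 4 lists. Gdf5 is a ligand of the bone morphogenetic protein branch of TGF-β signalling that slows wasting of denervated mouse muscle. Its 3′ region, chr2:155941123-155942207, held 1035 bases in denervated 1 and 1085 in denervated 2, which shared 0.954 of their combined bases. Its scores were among the larger of the lists (percentiles 36.5 and 29.6), as were those of its 5′ region of 543 and 395 bases (23.5 and 2.36). The related ligand Gdf6, chosen after its values were seen, had 3 and 2 denervated and 0 and 0 innervated peaks. Gdf15, a stress cytokine, had a single short peak of 149 and 198 bases, whose percentiles of 3.71 and 51.5 differed widely. Bmpr2, a receptor of these ligands, held regions of 550 and 150 bases at percentiles of 68.9 and 65.4. Gdf10 and Gdf11 had a region in all 4 lists, and Gdf1 held 2 of the opposite, innervated-only class.

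Of 23 transcription and chromatin genes with a peak, Mycl, Klf5, Sox11, Kdm3a and Mecom held members (21.7%, beside 4.33% of all genes with a peak). Of the 23, 14 had a region in all 4 lists. Mycl, a Myc-family factor, held 2 members, both at percentiles of 94.6 and 83.6. Sox11, a factor of developing neurons, had 3 peaks in denervated 1 and 4 in denervated 2, at 96.9 and 64.6, and its 5′ member reached the annotated start in denervated 1 only. Sox9, a cartilage and neural crest factor chosen after its values were seen, had peaks of 450 bases of identical extent in both denervated lists. Its other member held 101 and 201 bases, which shared 0.502 of their combined bases. Sox2, Sox9 and Sox11 were the 3 Sox genes among the members. Sox5, Sox7 and Sox12 had a region in all 4 lists, and Sox4 had 7 and 6 innervated against 5 and 0 denervated peaks. Klf5, with percentiles of 11 and 73.1, and Kdm3a, a histone demethylase, with 4.28 and 34.6, ranked differently in the denervated lists.

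**Figure D1:**
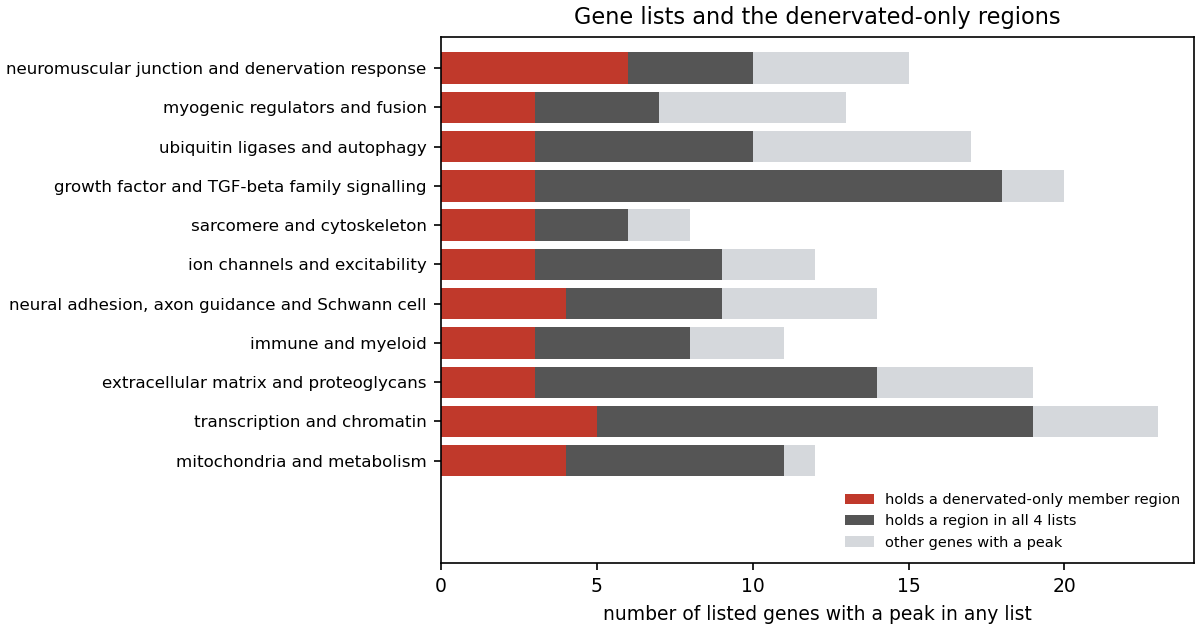
Number of listed genes with a peak in any list (horizontal axis) for each of 11 gene lists (vertical axis). Bars are split into genes that hold a denervated-only member (red), genes with a region in all 4 lists (dark grey) and other genes with a peak (light grey). The junction and denervation list has 6 red of 15.

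Of 14 neural and Schwann cell genes with a peak, 4 held a member (28.6%, beside 4.33% of all genes with a peak) and 5 had a region in all 4 lists. The 4 were Nrcam, Sox2, the neurotrophin receptor Ngfr and the neuronal calcium sensor Ncald. In the other direction, Cdh4, a cadherin, had 4 peaks in each innervated list, 0 in each denervated list and 3 innervated-only regions, and Epha4, an ephrin receptor, had 2 innervated-only regions. Ngfr, a gene of immature and repair Schwann cells, held a region of 545 bases in denervated 1 and 741 in denervated 2. Its percentiles of 88.2 and 8.5 were far apart. Sox2, which marks immature Schwann cells, had peaks of 345 and 246 bases at 73.6 and 73.3, under the span of Sox2ot. The 6 Schwann cell markers, Sox10, Ngfr and Sox2 among them, together had 0 and 1 peaks in the innervated and 4 and 4 in the denervated lists, in 3 genes. The other 3 markers had 0 in any list. The 4 satellite cell markers had 0, 2, 5 and 5 peaks in innervated 1, innervated 2, denervated 1 and denervated 2. The 4 endothelial markers had 3, 3, 6 and 6, and the 4 fibroblast markers 2, 3, 5 and 4. The 3 neuronal and 3 erythroid markers had 0. The part of these cell types in the members was not tested.

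Of 11 immune and myeloid genes with a peak, Cd180, Cd101 and Gpr65 held members (27.3%, beside 4.33% of all genes with a peak). Of the 11, 5 had a region in all 4 lists, while the defining macrophage markers Adgre1, Csf1r, Cd68 and Itgam had 0 peaks. The 8 regions of Cd180, Cd101 and Gpr65 had a median mean percentile of 91.4, the highest of the 11 lists, in a list that was drawn up with these ranks known. Cd180, a Toll-like receptor homologue of B cells and macrophages, held 3 members at 98.2 and 96.4, of which 2 were 100 bases long in both lists. Cd101, an immunoglobulin-family surface protein, held 3 at 93.9 and 89, and Gpr65, a proton-sensing receptor, 2 at 89.6 and 85.6. Nod2, an intracellular sensor of bacterial cell wall, held 3 at 87.2 and 75.8. Other immune genes, chosen after their values were seen, had larger scores in a list. Tlr8, a Toll-like receptor, stood at 73.2 and 5.42, and Ifi47, an interferon-inducible GTPase, at 25.1 and 80.7. Tlr8 had 0 and 3 innervated and 4 and 4 denervated peaks, and its relatives Tlr2 and Tlr3 had a region in all 4 lists.

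Of 19 matrix genes with a peak, 3 held members (15.8%, beside 4.33% of all genes with a peak). Of the 19, 11 had a region in all 4 lists. Fbn1 had 5 and 3 denervated and 0 innervated peaks, in the start-covering region of 251 and 101 bases and in 2 regions at the 3′ end of the gene. The larger 3′ region held 552 and 601 bases. Percentiles were 78.6 and 70.9 at the start and 68.9 and 52.3 at the end. Chst14, a dermatan sulfotransferase, stood at 92.9 and 81.8. Galnt4, a glycosyltransferase, stood at 90 and 99.2, but its regions lie inside the span of Poc1b on the same strand, so those reads may belong to either gene.

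Of 12 mitochondrial and metabolic genes with a peak, 4 held a member (33.3%, beside 4.33% of all genes with a peak). Of the 12, 7 had a region in all 4 lists. Ndufaf4, which helps to assemble complex I of the respiratory chain, stood at 87.5 and 85.6. Phka1, the muscle subunit of phosphorylase kinase, had the same 349 bases in both lists at 68.9 and 70.5. Gpi1, a glycolytic enzyme, also had identical extents of 150 bases, at 9.79 and 4.25. The region of Amd1, an enzyme of polyamine synthesis, carried the names of both Amd1 and its near-identical copy Amd2, and its origin is uncertain.

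Members came in runs along a gene. Of the 259 genes, 177 held 1 member, 60 held 2 and 22 held 3 or more. The 82 genes with at least 2 were 31.7%, beside 80 of 277 (28.9%) in the innervated-only counterpart, where the most in a gene was 6. Of 120 gaps between neighbouring members of a gene, 76 (63.3%) were 1000 bases or less, with a median of 571. In 49 of the 82 genes all members shared the same score within each list, so ranks and regions of 1 gene are not independent.

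Macf1, a giant linker of microtubules and actin, held 10 members and had 11 and 12 denervated peaks and 0 innervated ones under that name. The nearest innervated peak on the strand lay 20171 bases from a member, inside the RefSeq span of Macf1. It is in innervated 2 under the name D830031N03Rik, so the lack of innervated peaks holds for the name Macf1 only. Of the 10 members, 7 lay between bases 123471639 and 123476288 of chromosome 4, and 3 between 123432083 and 123434963. The 3 had peaks of identical extent in both lists, of 501, 201 and 201 bases, as did regions of 451 and 401 bases among the 7. Over all 10 members, percentiles stood between 39.6 and 51.8 in denervated 1 and between 39.4 and 53.8 in denervated 2.

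Akap6, a scaffold that anchors protein kinase A at the nuclear envelope of striated muscle, had 9 and 7 denervated peaks in 7 members. A pair lay at 41.2% and 41.4% of the gene span, and 5 lay between 96.5% and 97.1%. The longest of the 7 held 450 bases in denervated 1 and 649 in denervated 2. Frem2, a basement membrane protein, had 8 and 8 denervated peaks in 7 members, of which 6 lay within the first 4.29% of the span and 1 near the 3′ end. Klhdc7a, a kelch protein, held 4 members, at 27 in denervated 1 and 84.2 in denervated 2.

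The other genes with 3 members were spread differently. The Wnt receptor Fzd10 had them between 17.5% and 55.4% of a short span, with percentiles of 89.3 and 76.1, whereas 6 other Frizzled genes had a region in all 4 lists. Npr3, the clearance receptor of natriuretic peptides, had 1 near the 5′ end with 998 block bases and 2 near the 3′ end. Dclre1a, Sox11 and the lncRNA 5930412G12Rik had all 3 in the first 30% of the span. This lncRNA is named Fzd10os in RefSeq and neighbours Fzd10. Its span ends at base 128600687 of chromosome 5, and that of Fzd10, on the opposite strand, begins at 128601106. Tmem127 and Cd180 had all 3 in the last 20%. Zrsr2, Ubqln2, Nod2, Nxpe3 and Cd101 had them further apart. Of all 259 genes, 247 were protein coding and 12 lncRNA, Hotair among them, which was chosen after its values were seen.

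**Figure D2:**
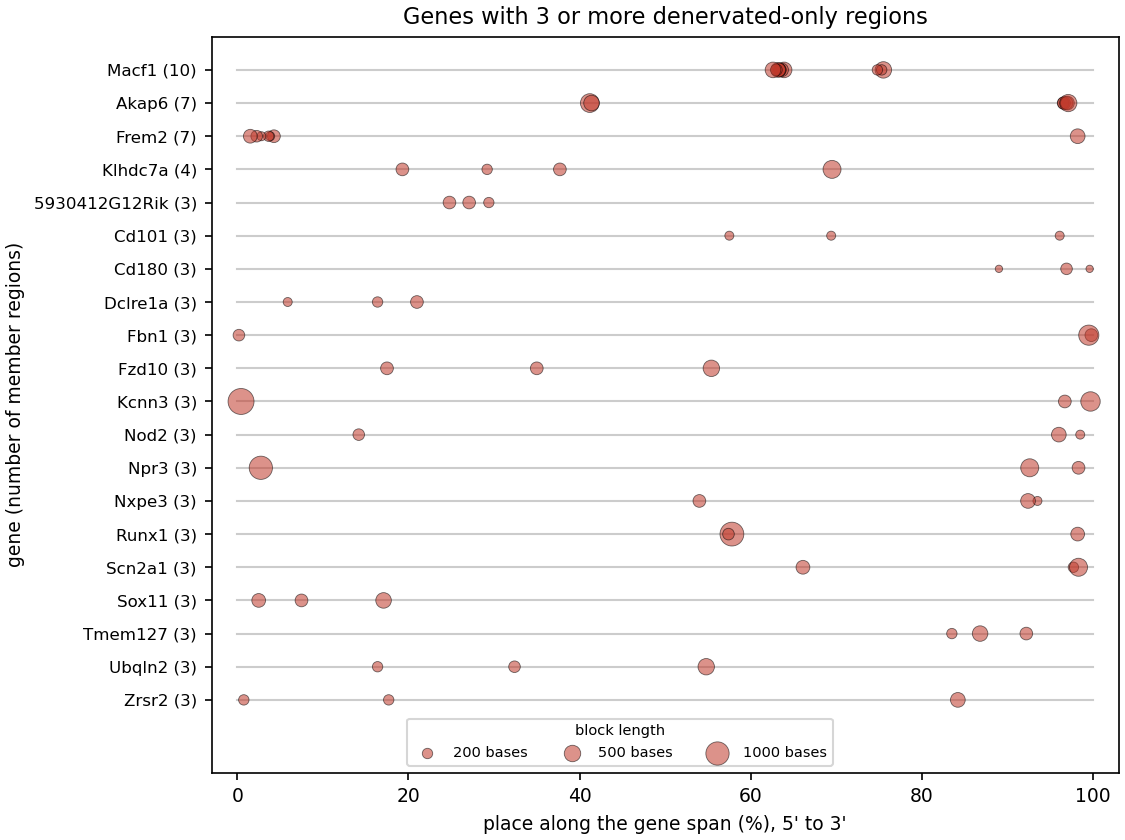
Place of each member along the gene span in percent, 5′ to 3′ (horizontal axis), for the genes with 3 or more members that are reported here (vertical axis, with their number). The area of a circle is proportional to block length. Macf1 has 10 members in 2 groups, and 6 of the 7 of Frem2 lie near the 5′ end.

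The members lay mostly towards the 3′ end of genes, with a smaller share there than their innervated-only counterparts. In the last 10% of the gene span lay 161 of 404 member peaks of denervated 1 (39.9%, 95% Wilson interval 35.2 to 44.7) and 156 of 388 of denervated 2 (40.2%, 35.4 to 45.2). Of innervated-only peaks they were 50.8% (46.1 to 55.6) in innervated 1 and 51.6% (46.8 to 56.3) in innervated 2. The denervated lists did not overlap the innervated ones. By the rule both lists of a group describe the same regions, so their closeness is built in. For these group-specific peaks, the SDs and permutation p values here and below therefore do not measure spread between replicates. On average 40 ± 0.251% (SD, n = 2) stood against 51.2 ± 0.514% (SD, n = 2), a difference of -11.2 percentage points, with a two-sided exact permutation p of 0.333, the smallest that 2 against 2 lists allow. With 1 value per gene the difference was -9.37 points (exact permutation p = 0.333). It narrowed to -4.65 with reciprocal overlap, to -5.36 and -2.17 with the 50% smallest and the 50% largest scores, and to -4.04 and -4.09 without innervated 2 and denervated 2, and kept its direction in each.

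Regions called in all 4 lists had 40.1% to 40.5% of their peaks in the last 10%, close to the members. Over all peaks of a list the shares were 41.7% and 42.8% in the innervated and 42% and 39.4% in the denervated lists, which overlap (exact permutation p = 0.667). A like difference stood in genes that do have a region in all 4 lists: 24.1% and 23.1% of denervated-only against 41% and 39.6% of innervated-only peaks (exact permutation p = 0.333). The first 10% held 7.18% and 6.96% of member peaks and 8.15% and 7.71% of innervated-only peaks. Of all members, 88 (23.3%) ended within 1000 bases of the 3′ end of the span, beside 119 of 394 (30.2%). The span holds introns, so these shares give no place in the spliced transcript. Spans were of like length, with a median of 24369 bases in member genes, 26942 in innervated-only genes and 25042 in genes with a region in all 4 lists.

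**Figure D3:**
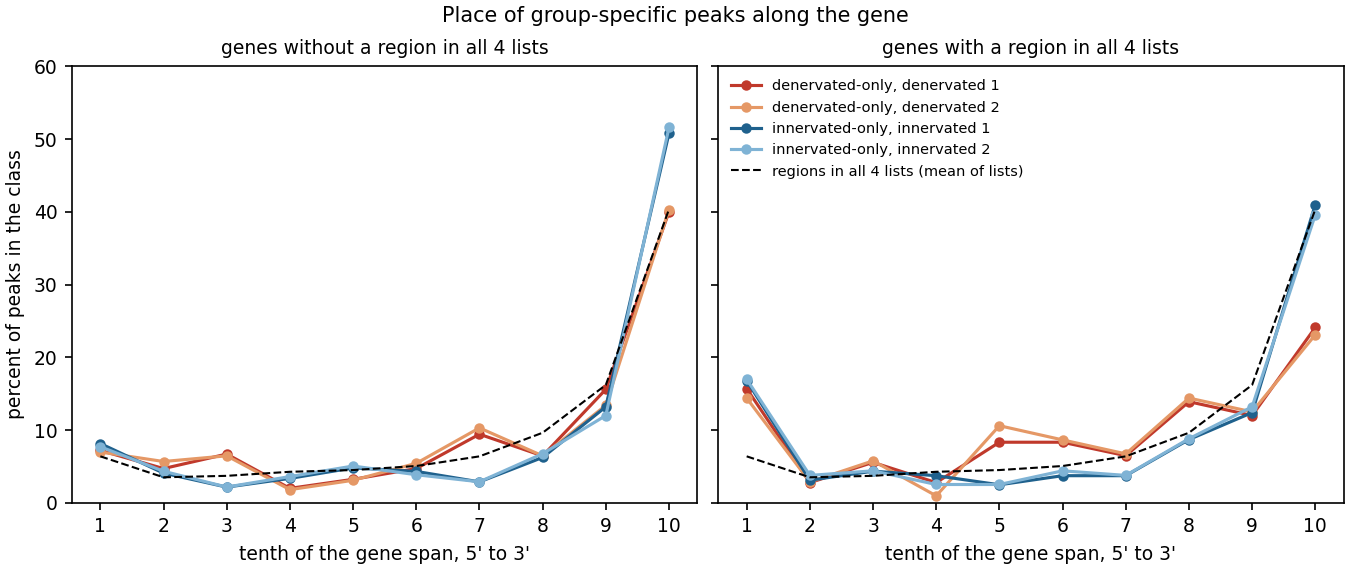
Percent of the peaks of a class (vertical axis) in each 10% of the gene span, 5′ to 3′ (horizontal axis), with 1 line per list. Members and innervated-only counterparts are on the left, the same classes in genes with a region in all 4 lists on the right, and the dashed line is the mean of regions in all 4 lists. The last 10% holds about 40% of member peaks and 50.8% and 51.6% of innervated-only peaks.

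Member peaks were short. Their median block length was 200 bases in denervated 1 and 246 in denervated 2, and that of innervated-only peaks 199 and 201. The means of 223 ± 32.5 and 200 ± 1.41 bases (SD, n = 2) differed by 23 bases, with overlapping lists (exact permutation p = 0.667). The direction turned without denervated 1 (-74) and without denervated 2 (-73), where peaks of 1 list suffice for the class. Regions in all 4 lists had medians of 300 to 350 bases, and all peaks of a list 249 to 250. Merged over both lists, members held a median of 299 bases, from 100 to 1245. Of them 48 were 500 bases or longer and 4, with regions of Kcnn3, Gdf5 and Runx1 among them, 1000 or longer.

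**Figure D4:**
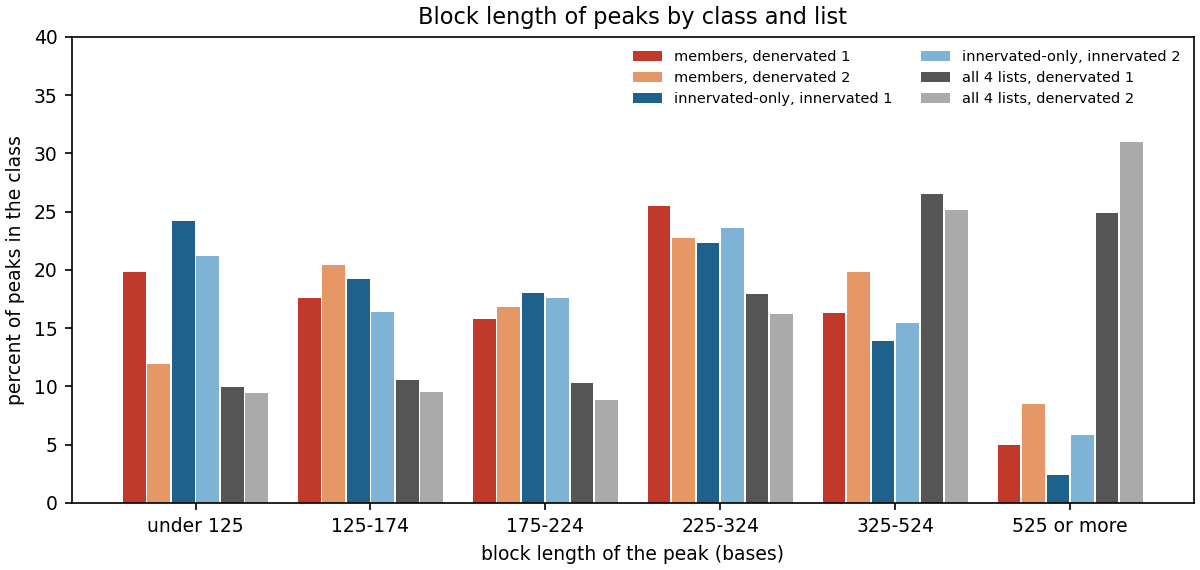
Percent of the peaks of a class (vertical axis) by block length in bases (horizontal axis), with 1 bar per class and list. The shortest class is 19.8% and 11.9% of member peaks, and the longest 4.95% and 8.51%, below the share among peaks of regions in all 4 lists.

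Most member peaks were a single block. Peaks of more than 1 block, which the lists place across gaps in the genome, were 33 of 404 (8.17%) and 33 of 388 (8.51%), beside 9.35% and 10.6% of innervated-only peaks. The difference was -1.64 points between means of 8.34 ± 0.238% and 9.98 ± 0.884% (SD, n = 2; exact permutation p = 0.333). It was 1.82 points with the smallest scores, 0.812 without innervated 1 and 0.292 without denervated 2, so its direction changed with the setting. In 44 members a peak had more than 1 block, and in 22 in both lists. A single peak had 3 blocks in Kcnn3, Npr3, Hhipl1, Rasip1, Podn and Dtx3l, the last of which was chosen after its values were seen. In Hhipl1, a hedgehog-interacting protein homologue, both lists gave the same 3 blocks but for the outer end of the last, with 647 bases in the middle block and 21 in the first. Rasip1, an endothelial regulator of small GTPases, shared its first block of 207 bases, and the third, of 14 bases, was in denervated 2 alone. Podn, a small proteoglycan, likewise had the third block, of 39 bases, in denervated 2 alone.

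Both denervated lists placed most members alike, but the rule itself asks for overlapping peaks, so part of this agreement is built in. The shared part of the combined block bases had a median of 0.667, was at least 0.5 in 297 members (78.8%), and the extents were identical in 39. Innervated-only regions had 0.668 and 77.7%, and regions in all 4 lists 0.75 and 87.6% between the denervated lists. Peaks were wider in denervated 2 in 191 members, wider in denervated 1 in 122 and equal in 64. At the low end, the peaks of Uhrf1bp1, of 200 and 201 bases, shared 0.0025 of their combined bases. The 10 members on chromosome 18 are counted but not named.

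Score ranks spread over the whole of both lists. The mean percentile of a member ran from 0.667 to 97.3 with quartiles of 26.7 and 63.4. Member peaks had medians of 44.3 and 43.7, peaks of regions in all 4 lists 57.1 and 52.3. Across the 377 members, which share lists and often genes, Pearson's r between the denervated lists was 0.456 and Spearman's rho 0.455. The median absolute difference was 14.9, and 106 members stood above 50 in both lists and 150 below. Of the 18 members at 90 or more, all came from Cd180, Trim44, Prr15, Palm2, Galnt4, 5930412G12Rik, Cd101 and Fam46c. Prr15 had percentiles of 99.6 and 92.9, and Palm2, a lipid-anchored membrane protein, 96.9 and 94.2. Palm2 is an older name within the RefSeq gene Pakap. The nearest innervated peak, 144875 and 144075 bases from its members, is in innervated 2 under the name Pakap. Its lack of innervated peaks thus holds for the name Palm2 only. Below 10 stood 28 members, such as Fbxo31.

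**Figure D5:**
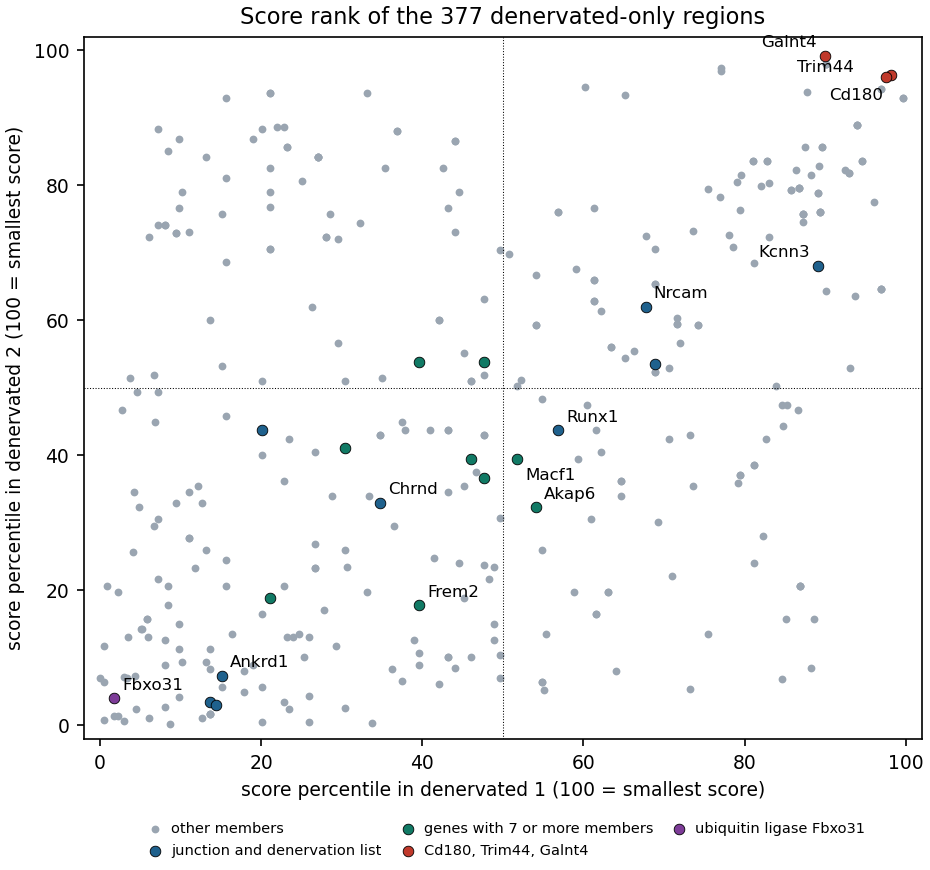
Score percentile of each of the 377 members in denervated 1 (horizontal axis) and denervated 2 (vertical axis), where 100 is the smallest score of the list. Colours mark reported genes of the groups named in the legend, grey all other members, and dotted lines stand at 50. The coloured regions of the junction list run from low percentiles in both lists, where Ankrd1 and 1 region of Kcnn3 stand, to the labelled region of Kcnn3 at 89.1 and 68.1.

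Most member genes had no innervated peak under their own name, which the rule favours, since it leaves out genes with a region in all 4 lists. Of the 259 gene names, 202 (78%) had 0 innervated peaks, 18 had some in innervated 1 alone, 35 in innervated 2 alone and 4 in both. Innervated peaks under another name, as at Macf1 and Palm2, are not counted. Genes without an innervated peak held 310 of the 377 members. Beside this, genes without a denervated peak held 283 of the 394 innervated-only regions. The nearest innervated peak on the same strand was at a median of 128491 bases. It was within 500 bases for 36 members (9.55%), beside 47 (11.9%) of the counterparts, and within 100 for 11. The nearest were at 48 bases in Vps18, a subunit of endosomal tethering complexes, 49 in Uhrf1bp1 and 97 in Zfp959. Vps18 had 4 peaks in innervated 1, 0 in innervated 2 and 6 in each denervated list. Fam46c, a poly(A) polymerase, had 3 in innervated 2 and its member lay 98 bases from one of them. Vps18, Uhrf1bp1, Zfp959 and Fam46c held 0 members when peaks within 100 bases were joined.

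Just outside the rule, 195 regions of genes without a region in all 4 lists were in both denervated lists and innervated 1, and 412 in both denervated lists and innervated 2. Their median block lengths were 400 and 392.5 bases, beside 299 for members. In denervated 1 alone were 790 regions and in denervated 2 alone 715, both with a median of 150 bases. Member genes held 172 such regions of 1 denervated list, in 111 of the genes. The member count was 541, 780, 1081 and 1157 without innervated 1, innervated 2, denervated 1 and denervated 2, since the rule is looser with fewer lists.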

How the data were processed

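m6A MeRIP-seq peak lists of 4 immunoprecipitated libraries, 2 innervated and 2 denervated, were used. Each list was called against the input of the same group and number, per the list names. The deposited value of a peak is called score per the file headers, ran from 0 to 0.023, and was used only to rank peaks within a list. Neither its meaning nor the peak caller is given in the sources used here. Small scores were read as strong, which is uncertain. If large scores mark strong peaks, every order of percentiles turns round. Per the submitters' processing notes, STAR 2.4.2a and ChIPseeker were used with mm10. The library kit preserves strand, per the labels' protocols.

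Read counts and inputs were not analysed here, so the depth is unknown. Peaks sharing at least 1 block base on a strand were linked (Python 3.11.15, NumPy 2.4.6), and the linking was tested on simulated data. The simulated regions lay far apart and their peaks overlapped widely, so short overlaps and close neighbours were not tested. Place came from RefSeq gene spans of GRCm38.p6, to which all 259 member names matched, 249 by current symbol and the others by an older one. A planned test took the mean of 2 lists against 2 by two-sided exact permutation (SciPy 1.17.1). Wilson intervals are at 95% and cover counting error between peaks only. Alternatives changed linking, score range, list length, absence, gene assignment, the gene rule and the lists used.

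Named genes are those with at least 3 members, the first 6 member genes of each of 11 gene lists, the 10 genes with the smallest scores, the 5 members with most blocks and with most bases, and the 3 nearest to an innervated peak. Others are said to be chosen after their values were seen, and genes without members serve as references. Some genes that the rule selects are counted but not reported here. The members and all lists were chosen with earlier results of these data known.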

Additional observations from a re-analysis of the deposited data

How the results depend on the processing

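With all 4 lists, the counts of members, member genes and innervated-only counterparts stayed within 1.5 times of 377, 259 and 394 in the 9 alternatives, at 310 to 444, 202 to 337 and 283 to 500. The regions themselves changed more. Of the 377 members, 298 were overlapped by members with 50% reciprocal overlap, 349 with equal numbers of peaks per list, 106 with the 50% smallest scores and 151 with the 50% largest, where a gene with scores on one side is lost on the other by construction. Of the genes named, Kcnn3 was a member gene in each of these settings. Fbxo31, Gdf15 and Kdm3a were lost with equal numbers. Kdm3a, Peg3, Prr15 and Uhrf1bp1 were lost with reciprocal overlap. Fam46c, Vps18, Xirp2, Uhrf1bp1 and Zfp959 were lost when peaks within 100 bases were joined, when no innervated peak within 500 bases was allowed and when the gene could have no innervated peak.

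Leaving out 1 library loosens the rule and gave 541 to 1157 members, 362 to 751 genes and 629 to 1284 counterparts. The difference in block length then ran from -74 to 98.5 bases, in peaks of more than 1 block from -2.80 to 0.812 points and in the last 10% of the gene span from -13.9 to -4.04 points. The difference in peaks of more than 1 block turned to 1.82 points with the 50% smallest scores and to 0.0637 where the gene had no peak in the other group. With a replicate block, in which same-numbered lists are paired and which was added after the data were seen, the differences of 23 bases, -1.64 and -11.2 points had an exact permutation p of 0.5, the smallest of 2 pairs. No label says that the numbers pair the muscles.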
